A study of Mus musculus with 36 samples.

Results

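The 10 genes described here encode secreted proteins that modulate Wnt signalling, and were followed through the development of the mouse heart. They are Sfrp1, Sfrp2, Sfrp4, Sfrp5, Frzb, Wif1, Dkk2, Dkk3, Rspo3 and Cthrc1. The genes were chosen by name, and every probe set annotated to one of these symbols alone was taken. This gave 18 of the 45037 probe sets on the array that are not controls. After a filter on low values, 15 probe sets of 9 genes were among the 27256 tested, and Dkk2 was described without a test.

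RNA of C57BL/6 mouse embryos from timed matings was hybridised to 36 Affymetrix arrays, in 12 groups of 3. The labels name no mutation, transgene or treatment in any group. From embryonic day 12.5 (E12.5) the heart was divided into both ventricles and the atrial chambers, which were separate samples. This gave 5 ages with both chambers, namely E12.5 and E13.5, then E14.5, then E16.5, and last E18.5. At E10.5 and E11.5 the sample was the middle of the embryo with the heart inside, after head and tail ends had been cut away, although the source field of these 6 arrays names the whole heart. It is called the heart region here. Whether the 3 arrays of a group came from separate embryos, litters or pools is not in the labels. Each p-value therefore measures array-to-array spread only, which may be technical. In bulk tissue, fewer cells of a type and less RNA per cell cannot be told apart.

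Values were deposited array intensities on a linear scale, with a 2% trimmed mean of 500 on each array. A difference is given on the log2(intensity + 17) scale with the standard error (SE) of a limma fit to all 36 arrays, and a fold on the same scale understates the change of dim genes. A call needed an adjusted p below 0.05, by the Benjamini-Hochberg method over all tested probe sets. Where a gene had several probe sets, the brightest on average stands for it. Intensities of different genes cannot be compared, because probe sets differ in how strongly they bind.

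The chamber labels were checked against marker genes. All 5 atrial markers were higher in atria over the 5 ages, and 4 of 5 ventricular markers were lower. On ventricular arrays the summed atrial markers ranged from 9893 to 16920 at E12.5 and from 5299 to 12043 at E18.5. The summed intensity of the ventricular markers (Irx4, Myl2, Hey2, Myl3 and Irx5) lay between 34253 and 55166 on the 15 ventricular arrays and between 4518 and 16935 on 10 atrial arrays. On the other 5 atrial arrays it was far higher, at 41205 and 29393 on E14.5 atrial replicates 2 and 1, 33298 on E16.5 replicate 2, 28550 on E18.5 replicate 1 and 25494 on E12.5 replicate 2. E14.5 atrial replicate 1 had, in addition, the lowest summed atrial markers of any atrial array (15490) and a sum of cushion and valve markers of 10288, against 5400 and 5956 on the other E14.5 atrial arrays. Where leaving these arrays out changed a call of a member, the value without them is given.

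Wnt proteins bind frizzled receptors and LRP co-receptors at the cell surface, and the secreted proteins described here change how much of that signal a cell receives. Secreted frizzled-related proteins (the Sfrp genes and Frzb) and Wif1 bind Wnt proteins outside the cell, Dickkopf proteins act on the co-receptors, and R-spondins keep frizzled receptors at the surface and so raise the response. In the embryonic heart, Wnt signalling takes part in growth of the muscle wall, formation of the cushions that become valves and septa, and rotation of the outflow tract.

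Promoter sequence was at hand for 5 of the 10 members, in RefSeq's GRCm38.p6. The 250 bases before the annotated start of Wif1 and Sfrp2 are shown because these members differed most between chambers, in opposite directions, among the 5. The Wif1 stretch is chr10:121033754-121034003 and the Sfrp2 stretch is chr3:83766071-83766320, both on the plus strand and read 5′ to 3′. Capitals mark matches on either strand to the GC box GGGCGG and to the TATA box TATAAA.
Wif1: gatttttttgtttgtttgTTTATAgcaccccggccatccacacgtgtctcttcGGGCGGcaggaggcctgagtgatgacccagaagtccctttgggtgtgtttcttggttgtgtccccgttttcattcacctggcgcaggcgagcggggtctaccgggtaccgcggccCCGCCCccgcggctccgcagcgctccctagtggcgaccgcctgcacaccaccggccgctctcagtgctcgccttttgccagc
Sfrp2: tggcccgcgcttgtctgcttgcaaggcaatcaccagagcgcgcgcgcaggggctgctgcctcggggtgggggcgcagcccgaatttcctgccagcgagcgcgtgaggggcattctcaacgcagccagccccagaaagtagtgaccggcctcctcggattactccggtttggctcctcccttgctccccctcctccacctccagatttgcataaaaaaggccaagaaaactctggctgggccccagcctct
Also searched on both strands were the TCF/LEF letters CTTTGAT or CTTTGTT, the T-box letters AGGTGT and the GATA letters AGATAA, none of which occur in either stretch. The motifs do not overlap each other in these stretches. Wif1 had 2 GC boxes, starting 197 and 82 bases before the start, and 1 TATA match on the opposite strand, 232 bases before it. Sfrp2 had no match to any of the 5 motifs. Of the 32851 promoters in the table, 32.7% held a GC box, 12.4% a TATA box, 8.06% a TCF/LEF match, 11.8% a T-box match and 9.99% a GATA match in the same 250 bases. Among the other members, Frzb held 1 T-box match and 1 GC box, Sfrp5 held 2 GATA matches and 1 GC box, and Dkk2 held 2 GC boxes and 1 TATA box. G and C made up 62.8% of the Wif1 bases and 63.6% of the Sfrp2 bases, against a median of 52.4% over all promoters. A match is a run of letters and says nothing about binding, and no match says only that the letters are not in this window.

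The first comparison asked how the members differ between atria and ventricles. Averaged over the 5 ages, Dkk3, Sfrp2, Sfrp1 and Cthrc1 were higher in atria and Wif1 was lower, by log2 differences of 2.60, 1.5, 0.66, 0.54 and -2.23. Rspo3, Frzb, Sfrp4 and Sfrp5 did not pass the test. Thus 5 of the 9 tested members were called, where 46.6% of the 12983 tested genes were called, so that the count is close to the background. The median size of the difference was 0.54 over the members and 0.16 over all genes, and the signed medians were 0.31 and -0.00. By size, Dkk3 ranked 21, Wif1 31 and Sfrp2 111 among the 12983 genes.

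By age, 1 of 9 members was called between the chambers at E12.5, where 11.3% of all genes were called, and 2 at E13.5, against 14.5% of genes. At E14.5 4 members were called, against 7.48% of genes. There were again 4 at E16.5, against 19.6%, and 5 at E18.5, against 22.7%. The median size over the members was 0.37 at E12.5 and 1.35 at E18.5, while over all genes it was 0.19 and 0.23. With E14.5 left out of the mean, Wif1 stood at -2.59, Sfrp2 at 1.32, Sfrp1 at 0.74 and Dkk3 at 2.65, all still called. Cthrc1 lost its call (0.33, adjusted p = 0.228) and Frzb gained one (-0.35, adjusted p = 0.0345), both in limma.

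**Figure D1:**
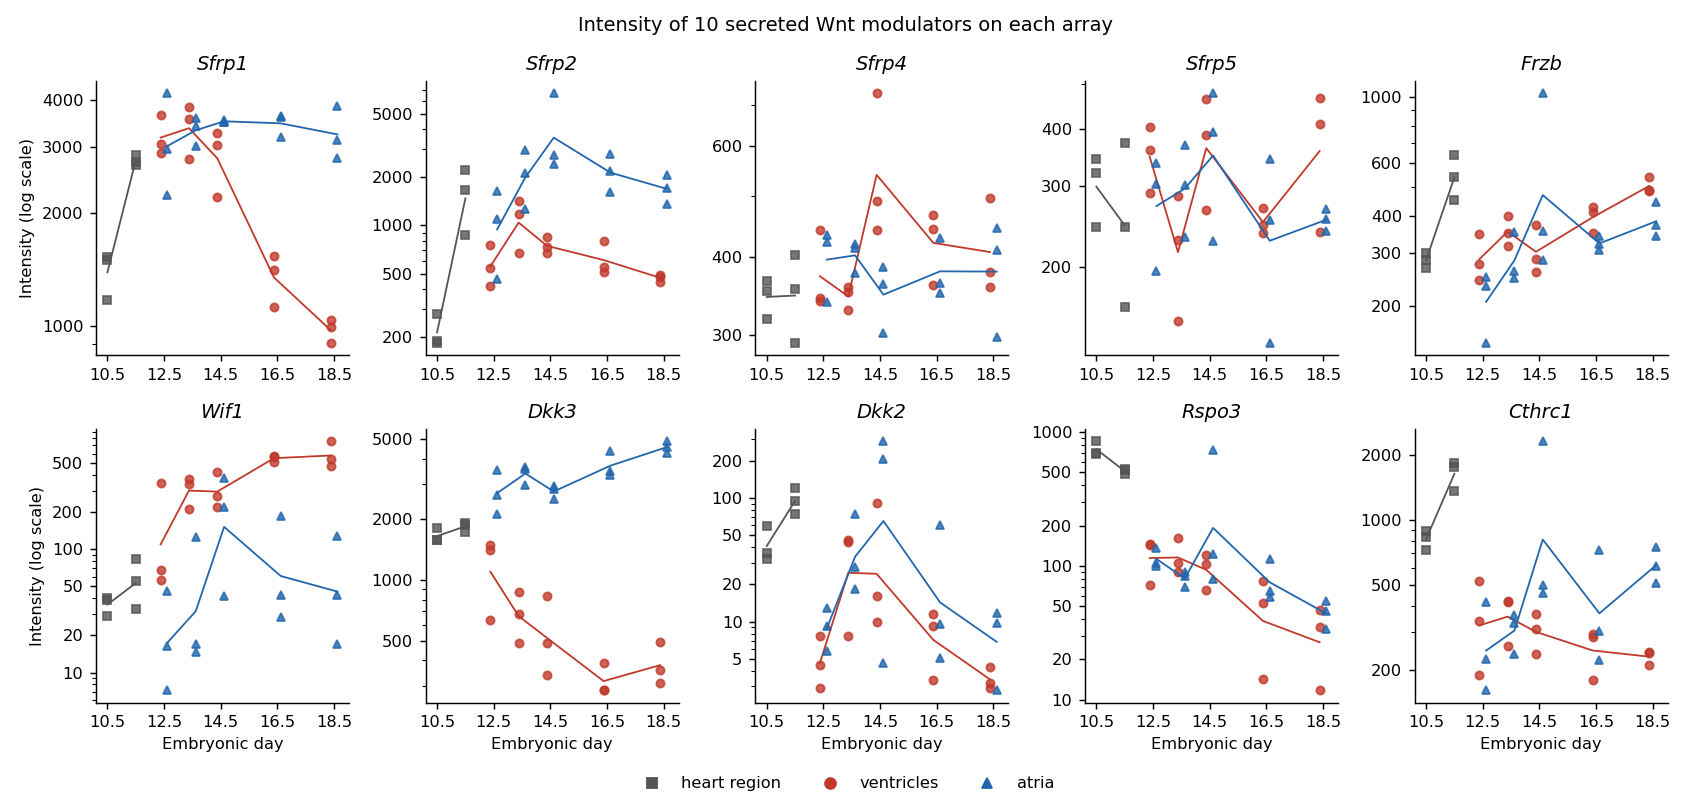
Intensity of each member on every array (log scale) against embryonic day, with squares for the heart region, circles for ventricles and triangles for atria, and lines through the geometric group means. Dkk3, Sfrp1 and Sfrp2 separate towards higher atrial values, Wif1 towards higher ventricular values, and E14.5 atrial replicate 1 is the top triangle for Sfrp2, Frzb, Rspo3 and Cthrc1.

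Among the Wnt-binding proteins, Sfrp1 did not differ between chambers early and differed strongly late. In ventricles its intensity was 2877, 3638 and 3042 at E12.5, and 993, 1038 and 906 at E18.5. In atria it was 2229.9, 2949 and 4149.7 at E12.5, and 2802, 3132 and 3845 at E18.5. The E12.5 values overlapped between chambers, while at E18.5 every atrial array lay above every ventricular array. The atrium-minus-ventricle difference was -0.07 ± 0.17 at E12.5, -0.02 at E13.5 and 0.32 at E14.5 (adjusted p = 0.839, 0.962 and 0.245 by limma). It was 1.35 ± 0.17 at E16.5 (adjusted p = 1.3e-06) and 1.71 ± 0.17 at E18.5 (3.27-fold, adjusted p = 2.18e-08, limma).

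In this brightest probe set, the change over gestation was in the ventricles. From E12.5 to E18.5 the ventricular level fell by 1.68 ± 0.17 (3.20-fold, adjusted p = 3.19e-08), and in atria the change was 0.10 with a 95% interval of -0.24 to 0.44. The ventricular E16.5 values, 1539.7, 1415 and 1126, already lay below all earlier ventricular values, of which the lowest was 2205 at E14.5. The atrial change minus the ventricular change, tested as such in limma, was 1.78 ± 0.24 (adjusted p = 3.94e-05).

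Sfrp1 had 5 tested probe sets, and they agreed in direction at E18.5 but not in size. Against 1.71 in the brightest, the E18.5 difference was 1.08, 0.92 and 0.90 in 3 others, each called, and 0.09 in the dimmest (adjusted p = 0.858). The ventricular fall over the period was called in the same 4 and was -0.29 (adjusted p = 0.408) in the dimmest. In atria the 4 dimmer probe sets changed by -0.005, -0.13, -0.37 and -0.56, none called. The last is the dimmest, whose atrial groups did not overlap (adjusted p = 0.091, limma). The difference between chambers in the change was 1.31 and 1.16 in 2 of the others, both called, 0.73 in the next (adjusted p = 0.158) and -0.27 in the dimmest (adjusted p = 0.723). At E16.5 the 4 dimmer probe sets gave 0.34, 0.46, 0.28 and 0.48, of which 0.46 was called. Averaged over the 5 ages they gave 0.20 to 0.25, against 0.66 in the brightest.

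**Figure D2:**
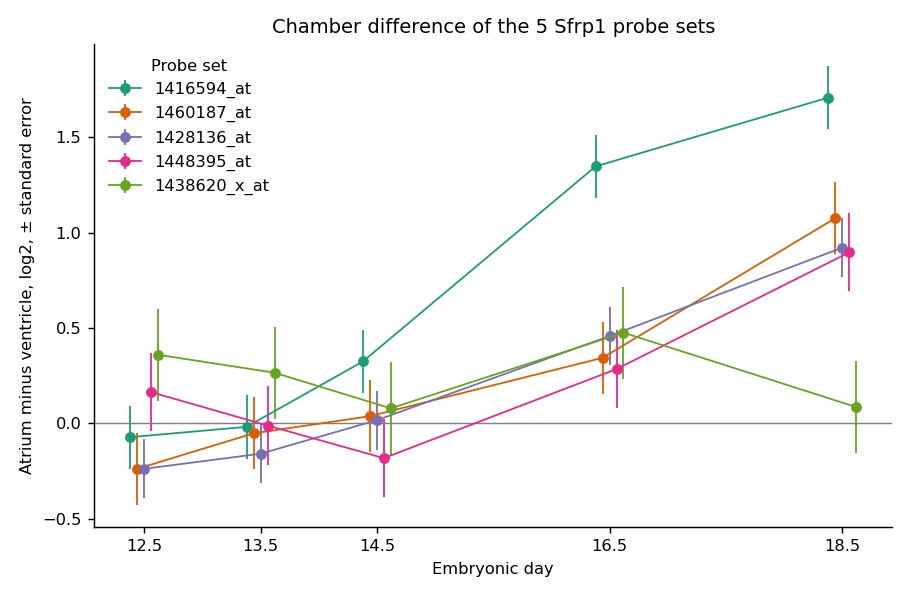
Atrium-minus-ventricle difference in log2(intensity + 17) with its standard error, against embryonic day, for the 5 Sfrp1 probe sets. At E18.5 4 of them lie between 0.90 and 1.71 and the dimmest probe set lies at 0.09.

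Sfrp2 was called higher in atria at E14.5, E16.5 and E18.5. Its ventricular values were 731, 671 and 848 at E14.5, then 512, 802 and 548 (E16.5), then 491, 446 and 478 (E18.5). The atrial values were 6681, 2753 and 2408 at E14.5, then 1608, 2796 and 2182 (E16.5), then 1371, 2072 and 1708 (E18.5). The groups did not overlap at these 3 ages, and E14.5 atrial replicate 1 was the highest of all 36 arrays. The differences were 2.22, 1.79 and 1.81 ± 0.39 (4.66-, 3.45- and 3.50-fold), with adjusted p = 0.000694, 0.00147 and 0.00105 in limma. At E12.5 and E13.5 they were 0.75 and 0.93, in the same direction, with overlapping arrays and adjusted p = 0.234 and 0.12. The atrial minus the ventricular change from E12.5 to E18.5 was 1.06 ± 0.55 and was not called (adjusted p = 0.303, limma). An onset of the difference at E14.5 is therefore not shown. Without E14.5 atrial replicate 1, the E14.5 difference was 1.76 (adjusted p = 0.00733). Fitted on the 6 arrays of E14.5 alone, it had an adjusted p of 0.0513.

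Markers of other cell types also differed between the chambers. Of 9 epicardial markers 8 were higher in atria in the mean of the ages, and of 9 fibroblast and matrix markers 7, while none was lower, where 46.6% of all genes were called. At E18.5 6 of 9 epicardial markers and 1 of 9 fibroblast and matrix markers were called higher, and at E13.5 6 and 0. At E18.5 the summed epicardial markers lay between 14608 and 18137 in atria and between 7331 and 7546 in ventricles. The summed fibroblast and matrix markers lay between 50175 and 56549 in atria and between 41122 and 46213 in ventricles. Their part in the Sfrp2, Sfrp1, Dkk3 and Cthrc1 differences was not tested. Sfrp2 did not pass the test for a change over the period in either chamber, with -0.23 in ventricles (adjusted p = 0.707) and 0.83 in atria (adjusted p = 0.122). Without E12.5 atrial replicate 2, whose Sfrp2 was 1646 beside 466 and 1099, the atrial change was 1.22 (adjusted p = 0.034), and without the 5 atrial arrays with high ventricular markers it was 1.37 (adjusted p = 0.0212). That array also had the highest Alb, a liver gene, at 6352.

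The remaining frizzled-related genes differed little between chambers. Frzb, a Wnt-binding relative of the frizzled receptors, had a mean difference of -0.16 (adjusted p = 0.289). On E14.5 atrial replicate 1 Frzb stood at 1024, beside 355 and 284 on the other arrays of its group. Without that array the mean was -0.27 (adjusted p = 0.00692), without the 5 atrial arrays it was -0.31 (adjusted p = 0.00579), and with E14.5 left out of the mean it was -0.35 (adjusted p = 0.0345). Frzb was lower in atria in the means of E12.5, E13.5, E16.5 and E18.5, by 0.28 to 0.44 on the log2 scale, but no age passed the test alone. It rose over the period in both chambers, by 0.78 ± 0.26 in ventricles (348, 276 and 245 at E12.5, 485, 487 and 539 at E18.5, adjusted p = 0.0251) and by 0.84 ± 0.26 in atria (151, 249.5 and 234 at E12.5, 342, 443 and 371 at E18.5, adjusted p = 0.0182). These groups did not overlap. Leaving out ventricular E12.5 replicate 2 or 3 or E18.5 replicate 2 or 3 gave adjusted p between 0.0522 and 0.105 for the ventricular rise. Leaving out atrial E12.5 replicate 1 or E18.5 replicate 2 gave 0.142 and 0.079 for the atrial rise. The other Frzb probe set, at 61.8 to 264.2, was below the filter on all but 2 arrays.

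Sfrp4 lay between 291 and 729 on the 36 arrays and Sfrp5 between 137 and 477, and neither followed age or chamber as a whole. Their mean chamber differences were -0.11 with a 95% interval of -0.27 to 0.04 and -0.11 with an interval of -0.39 to 0.17. Sfrp4 was called at E14.5 alone, where ventricles gave 729, 491 and 441 and atria 362, 302 and 385, a difference of -0.61 ± 0.17 (adjusted p = 0.0268). Without E14.5 ventricular replicate 1 it was -0.40 (adjusted p = 0.24), and without atrial replicate 2 or 3 it was -0.52 and -0.68 (adjusted p = 0.0876 and 0.0535). It was -0.47 (adjusted p = 0.252) without the 5 atrial arrays, and the adjusted p was 0.245 when the 6 arrays of E14.5 were fitted alone. Sfrp5 was called in no comparison. A dim probe set of Sfrp5, between 18.5 and 297.1, was not tested.

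Wif1, a Wnt-binding protein with a domain of its own, was the member with higher ventricular values. In ventricles it was at 69, 347 and 56 at E12.5, 374, 212 and 342 at E13.5, and 274, 221 and 425 at E14.5. Later it stood higher there, at 574, 512 and 568 on the E16.5 arrays and at 474, 541 and 759.7 on those of E18.5. In atria it was at 7, 46 and 16, then 15, 17 and 127, then 380.4, 222 and 42, then 43, 187 and 28, and last 128, 17 and 43 at these 5 ages. At every age except E14.5, no atrial array reached the lowest ventricular array. Wif1 exceeded the filter value of 171.8 on 16 arrays and so passed largely through the ventricles, which bears on the direction of its difference. Most atrial values are near the bottom of the scale, where a fold is uncertain.

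The mean Wif1 difference was -2.23 ± 0.29 (4.70-fold lower in atria, adjusted p = 2.58e-07), and it ranged from -1.59 to -2.87 over 40 alternatives. By age it was -1.83 at E12.5 (adjusted p = 0.0692), -2.57 at E13.5 (0.00814), and -0.82 at E14.5 (0.48). The E16.5 difference was -2.79 (0.00276) and that of E18.5 was -3.16 ± 0.65 (0.000656), all adjusted p in limma. At E13.5 the adjusted p was 0.0519 without atrial replicate 1 and 0.0513 without atrial replicate 2. Wif1 rose in ventricles between E12.5 and E18.5 by 2.18 ± 0.65 (4.54-fold, adjusted p = 0.0112). Without ventricular E12.5 replicate 1 or 3 the rise was 1.87 and 1.76 (adjusted p = 0.0637 and 0.0779). The atrial change was 0.85 (adjusted p = 0.368), and the difference between the changes was -1.33 with a 95% interval of -3.20 to 0.53.

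High atrial Wif1 went with high ventricular markers. On the 5 atrial arrays with the highest summed ventricular markers, in falling order of that sum, Wif1 was 222, 187, 380.4, 128 and 46. On the 10 other atrial arrays its median was 22.65 and its highest value 127, on E13.5 replicate 3, where the ventricular sum was 6107. With the 5 arrays left out, the mean difference was -2.87, and the differences by age were -2.21, -2.57, -2.41, -3.45 and -3.72. These arrays were picked by their ventricular markers, so leaving them out tends to lower the atrial level of any gene high in ventricles. The larger differences are therefore no separate support. That choice of arrays was made after the values were seen and leaves 1 atrial array at E14.5, which is assumed to vary like the other groups.

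**Figure D3:**
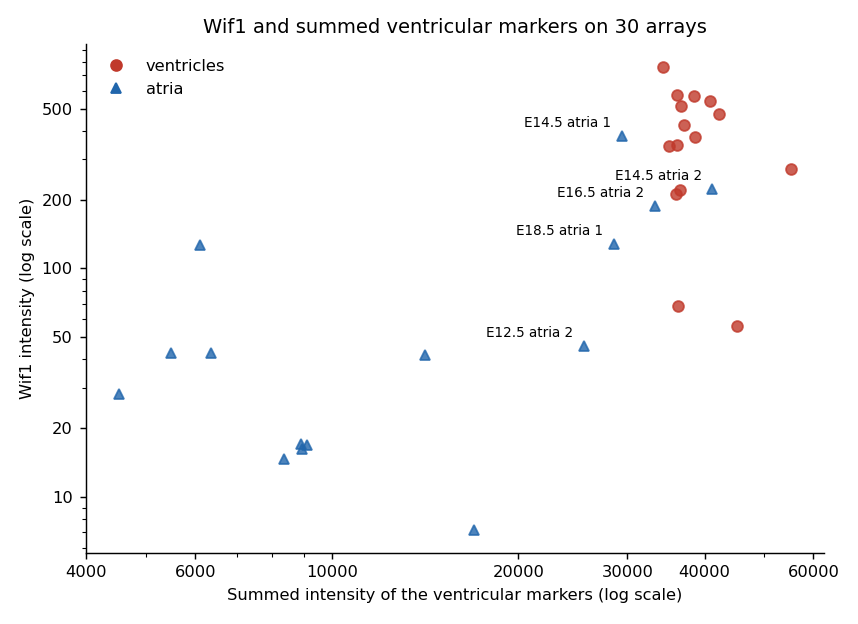
Wif1 intensity against the summed intensity of 5 ventricular markers on 30 arrays (both log scales), circles for ventricles and triangles for atria. The 5 named atrial arrays have sums between 25494 and 41205, and the other 10 atrial arrays have sums of at most 16935.

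Dkk3 was higher in atria at all 5 ages. Dkk3 is the most divergent protein of the Dickkopf family, and its part in Wnt signalling is less settled than that of its relatives. Its ventricular values were 1407, 633 and 1502 at E12.5, 489, 876 and 680.2 at E13.5, and 339, 832 and 489.8 at E14.5. The last ventricular groups gave 285, 387 and 285 (E16.5) and 491, 308 and 360 (E18.5). Its atrial values were 2128, 2632 and 3520 at E12.5, 3559, 3656 and 2967 at E13.5, and 2521, 2829 and 2922 at E14.5. The last atrial groups gave 4384, 3332 and 3460 (E16.5) and 4258, 4900.3 and 4581 (E18.5). The lowest atrial value of all 5 ages, 2128, was above the highest ventricular value, 1502. Both heart region groups lay between them, at 1577 to 1928.

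The Dkk3 difference was 1.28, 2.32, 2.37, 3.48 and 3.53 at the 5 ages in order, each ± 0.26. The folds ran from 2.43 at E12.5 to 11.6 at E18.5, and the adjusted p from 0.00191 at E12.5 to 3.67e-10 at E16.5 (limma). The mean was 2.60 ± 0.12 (6.05-fold, adjusted p = 1.13e-16). Fitted on the 6 arrays of E12.5 alone, that age gave an adjusted p of 0.109. The ventricular level fell by 1.5 ± 0.26 from E12.5 to E18.5 (2.83-fold, adjusted p = 7.1e-05). In atria it rose by 0.76 ± 0.26 (adjusted p = 0.0325), a call that was lost without atrial E12.5 replicate 1 (0.58, adjusted p = 0.183) or replicate 2 (0.74, 0.0776), and without E18.5 replicate 1, 2 or 3 (0.81, 0.71 and 0.75, with adjusted p = 0.0542, 0.0953 and 0.0745). Without the 5 atrial arrays it was 0.79 (adjusted p = 0.117). The atrial minus the ventricular change was 2.26 ± 0.37 (adjusted p = 0.000543). A second probe set gave 2.29 for the mean and 2.16 for the difference between the changes, both called. The summed atrial markers were 14446, 9893 and 16920 on the E12.5 ventricular arrays, in replicate order. On the E18.5 ventricular arrays they were 12043, 5788 and 5299. Their part in the ventricular fall of Dkk3 was not tested.

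Dkk2, which inhibits Wnt signalling through the LRP co-receptors in many tissues, was near the bottom of the scale. It reached 74 to 120.4 in the E11.5 heart region and 32 to 59 at E10.5. In the chambers it exceeded the filter value on 2 arrays, E14.5 atrial replicates 1 and 3 at 208 and 288, where replicate 2 stood at 5. No test was made at values this low.

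**Figure D4:**
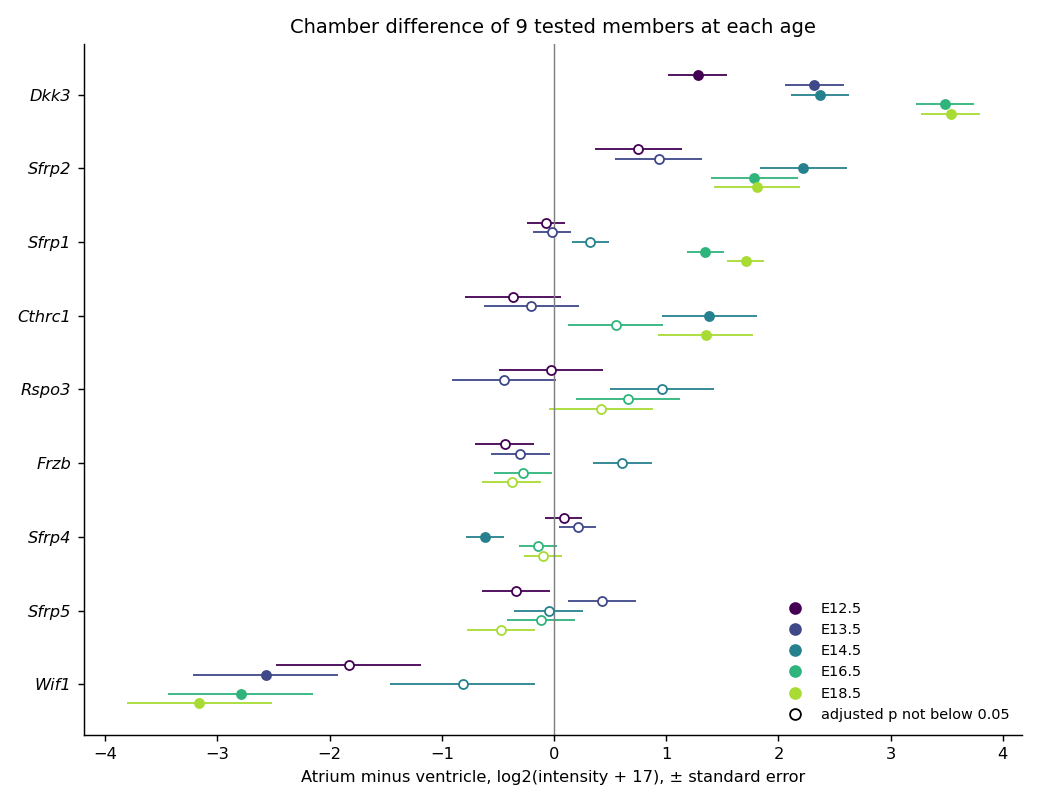
Atrium-minus-ventricle difference in log2(intensity + 17) with its standard error for the 9 tested members at 5 ages, from E12.5 at the top of each cluster to E18.5. Filled points passed the test, and Dkk3 is filled at all 5 ages, from 1.28 to 3.53.

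Rspo3, an R-spondin that strengthens Wnt responses, was a gene of the heart region in these samples. It stood at 686, 859 and 702 at E10.5 and at 518, 488 and 527 at E11.5. From E12.5 on it lay between 12 and 161 on 29 of the 30 chamber arrays. The exception was E14.5 atrial replicate 1 at 734, where the other E14.5 atrial arrays gave 79.8 and 122. These 7 arrays alone carried Rspo3 over the filter, so a difference between early and later groups was set by how it entered the test. It was lower at E12.5 than in the E11.5 heart region, by 2.01 ± 0.40 (4.03-fold, adjusted p = 0.0107), with adjusted p between 0.0581 and 0.0636 when any 1 of the E11.5 arrays was left out. A second probe set gave -1.71 (adjusted p = 0.0245), but it passed the filter on the 3 E10.5 arrays alone and is no separate support.

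In ventricles Rspo3 fell further, from 146, 72 and 143 at E12.5 to 35, 47 and 12 at E18.5 (-1.53 ± 0.46, adjusted p = 0.0129). Without ventricular E12.5 replicate 1 or 3 or E18.5 replicate 3, the adjusted p was 0.0583, 0.0559 and 0.0861. The atrial change was -1.08 (adjusted p = 0.0879). The chambers did not differ in the mean (0.31, adjusted p = 0.231), and the E14.5 difference of 0.96 (adjusted p = 0.212) was 0.06 without atrial replicate 1 and 1.54 (adjusted p = 0.0419) without atrial replicate 2. The second probe set was called lower in atria at E12.5 (-1.36, adjusted p = 0.0485), where the brighter gave -0.03, and its values there were between 8.6 and 89.4. For the change over the period it gave -0.495 in ventricles and 0.34 in atria (adjusted p = 0.444 and 0.626, limma). At E12.5 and E18.5 both probe sets lay below the filter value of 171.8 on every chamber array.

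Cthrc1 encodes a secreted collagen-repeat protein that binds Wnt and frizzled proteins and is known for favouring the planar polarity branch of the pathway. It was at 890.4, 836 and 724 in the E10.5 heart region and at 1759.7, 1844 and 1362 at E11.5. At E12.5 it was at 340.5, 189.5 and 523 in ventricles and 225, 414 and 162 in atria, with no overlap with E11.5. Averaged over the chambers, E12.5 was lower than the E11.5 heart region by 2.46 ± 0.37 (5.51-fold, adjusted p = 0.000445), the difference ranking 5 of 12983 genes by size.

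Cthrc1 was called higher in atria at E14.5 and E18.5, and not at E16.5, where the arrays overlapped and the difference was 0.55 (adjusted p = 0.409). At E18.5 the atria gave 511, 611 and 749.5 and the ventricles 212, 243 and 239, a difference of 1.35 ± 0.42 (2.55-fold, adjusted p = 0.023). Without any 1 of the E18.5 ventricular arrays the adjusted p was between 0.0504 and 0.0667, and without atrial replicate 2 or 3 it was 0.0578 and 0.0967. At E14.5 atrial replicate 1 stood at 2331, beside 459 and 499, against 239, 367 and 312 in ventricles, and the difference was 1.38 ± 0.42 (adjusted p = 0.0471). Without that array it was 0.64 (adjusted p = 0.339), without the 5 atrial arrays it was 0.69 (adjusted p = 0.276), and without ventricular replicate 1, 2 or 3 the adjusted p was 0.197, 0.0538 and 0.0739. The mean over ages was 0.54 ± 0.19 (adjusted p = 0.0216), and 0.33 with E14.5 left out (adjusted p = 0.228). Without the 5 atrial arrays with the highest ventricular markers it was 0.27 (adjusted p = 0.117).

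Over the period, atrial Cthrc1 rose by 1.26 ± 0.42 (adjusted p = 0.0294), with adjusted p between 0.0667 and 0.127 when E12.5 atrial replicate 1 or 3 or E18.5 atrial replicate 2 or 3 was left out. Its atrial minus ventricular change was 1.72 ± 0.60 (adjusted p = 0.105). Without E12.5 ventricular replicate 2 it was 2.08 (adjusted p = 0.0495), and without the 5 atrial arrays 2.20 (adjusted p = 0.00253). E18.5 atrial replicate 3, the highest of its group, also had the highest summed foregut and lung markers of any array, at 14693. Without it and the 2 other atrial arrays high in these markers, the E18.5 difference was 1.21 (adjusted p = 0.0931).

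**Figure D5:**
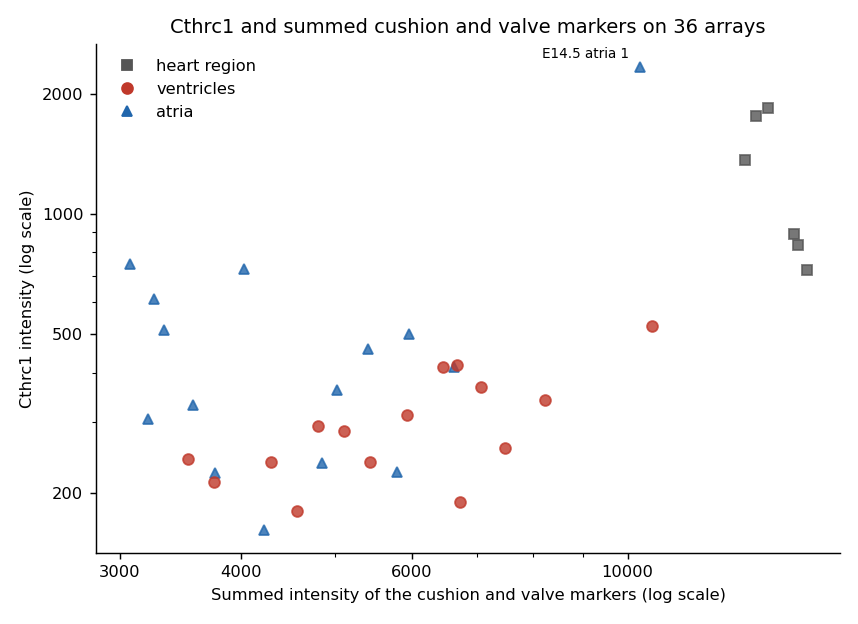
Cthrc1 intensity against the summed intensity of 9 cushion and valve markers on 36 arrays (both log scales), squares for the heart region, circles for ventricles and triangles for atria. The heart region arrays have sums between 13204 and 15285, and E14.5 atrial replicate 1, named, has the highest Cthrc1 value, 2331, at a sum of 10288.

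Over the period from E12.5 to E18.5, members were called in the ventricle in both directions, with Wif1 and Frzb higher and Sfrp1, Dkk3 and Rspo3 lower at E18.5, which is 5 of 9 against 31.6% of all genes. In the atrium 3 members were called, all higher (Cthrc1, Frzb and Dkk3), against 27.5% of genes, and 0 to 3 with 1 array left out at a time. The change differed between chambers for 2 members, Dkk3 and Sfrp1, where 4.57% of genes were called. In the brightest probe set of both, the atrial change was the more positive, and the ventricular fall was the larger of the changes.

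The next comparison concerned the heart region before the chambers were separated. From E10.5 to E11.5, Sfrp2 rose from 281, 189.9 and 186 to 1676, 2215 and 870.4, by 2.69 ± 0.39 (6.45-fold, adjusted p = 0.000282), and ranked 4 of 12983 genes by size. Sfrp1 rose from 1526, 1503 and 1175 to 2856, 2734 and 2683, by 0.98 ± 0.17 (1.97-fold, adjusted p = 0.00177). These 2 of 9 members stand against 1.51% of all genes called. Frzb (0.88, adjusted p = 0.0957) and Cthrc1 (1.0, adjusted p = 0.315) did not pass, although their arrays did not overlap. Fitted on the 6 heart region arrays alone, 5 members were called. That fit called 2218 of the 27256 probe sets, against 315 in the main fit. In it Frzb had an adjusted p of 0.00642, Cthrc1 0.00294 and Rspo3, lower at E11.5 by 0.53 on the log2 scale, 0.0164. Without the 5 atrial arrays Frzb had an adjusted p of 0.00626. Fibroblast and matrix markers moved the same way, with 3 of 9 higher at E11.5 and sums of 17028 to 18826 at E10.5 and 24080 to 32569 at E11.5. The somite and skeletal muscle sum was 415 to 505 at E10.5 and 824 to 1051 at E11.5, and the endothelial sum also rose. Lower at E11.5 were the sums of cushion and valve (14828 to 15285, then 13204 to 13943), smooth muscle, cartilage, liver, atrial, ventricular and cardiac muscle markers. No marker outside the fibroblast and matrix list was called. The part of these tissues was not tested.

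From the E11.5 heart region to the averaged E12.5 chambers, 3 of 9 members were lower (Cthrc1, Rspo3 and Frzb) and none was higher, where 1.16% of all genes were called. Since Rspo3 passed the filter through the heart region arrays and 1 chamber array, its call is not to be read against that share. Frzb went from 639, 539.8 and 452 to the E12.5 values above (-1.09 ± 0.23, adjusted p = 0.0137), with adjusted p = 0.122 and 0.0763 without E11.5 replicate 1 or 2. Sfrp2 stood at -1.01 (adjusted p = 0.154), and at -1.21 (adjusted p = 0.0354) without the 5 atrial arrays. This step joins a difference in age to a difference in dissection, and the 2 cannot be told apart. Of 9 cushion and valve markers 5 were lower at E12.5 and none higher, with a median of -0.99 and sums of 13204 to 13943 at E11.5 and of 4220 to 10594 in the chambers. The cartilage sum was 3633 to 4179 at E11.5 and 540 to 2976 in the E12.5 chambers, with 1 of 3 tested markers called lower. Of the other tissue lists, 0 of 7 foregut and lung, 0 of 5 liver and 0 of 2 neural markers were called. Their medians were 0.01, 0.85 and -0.55. Of 4 somite and skeletal muscle markers 1 was lower, with a median of 0.14. The part of these tissues in the member values was not tested.

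Other genes of the pathway were read from lists, beside the 46.6% of all genes that were called in the mean of the ages. Of 11 tested Wnt ligands 6 were higher in atria in the mean of the ages and none lower (median 0.38), led by Wnt2 (1.58 ± 0.19, adjusted p = 4.92e-08), Wnt9a (0.68), Wnt11 (0.62) and Wnt5a (0.62). Of 12 other secreted or surface regulators 7 were higher and none lower (median 0.34), led by the R-spondins Rspo2 (1.30 ± 0.16, adjusted p = 1.04e-07) and Rspo1 (0.94), the LRP antagonist Sost (1.06) and the glypican Gpc4 (0.49). Receptors and co-receptors went both ways, with 5 of 20 higher and 8 lower (median -0.03). Fzd7 was the furthest up (2.12 ± 0.08, adjusted p = 7.25e-18) with Fzd3 (0.69), and Ror1 (-1.01) and Fzd9 (-0.56) the furthest down.

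Of 8 feedback and target genes 3 were higher in atria and 2 lower, in the same comparison with 46.6% of all genes called. The reporters of canonical signalling Axin2 (0.86 ± 0.09, adjusted p = 8.37e-09) and Tnfrsf19 (0.94) were higher, and Nkd2 (-1.04) was lower. Of 13 intracellular transducers 3 were higher and none lower, by at most 0.28, which is a share below that of all genes. In the ventricle between E12.5 and E18.5, 4 of 11 ligands fell, led by Wnt5a (-2.14 ± 0.25, adjusted p = 3.3e-07), and 4 of 12 regulators fell, led by Rspo1 (-1.33), while no gene of either list was called higher. Counting calls in both directions, these shares are close to the 31.6% of all genes called there. Over all genes, 2198 of 12983 were called lower and 1903 higher, while the calls in these lists were all lower. From the E11.5 heart region to the averaged E12.5 chambers, 2 of 8 targets were called lower, Lef1 (-1.17) and Bambi (-0.74). Of 20 receptors 3 were called lower, Fzd7 (-0.80), Fzd2 (-0.67) and Fzd1 (-0.59). No gene of these 2 lists was called higher, and 1.16% of all genes were called. None of the 11 ligands, 12 regulators and 13 transducers was called in either direction. In this step age and dissection cannot be told apart.

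Across the 10 chamber group means, the members fell into no single pattern. Wif1 and Dkk3 ran opposite to each other (Pearson r = -0.90), and Dkk3 ran with Sfrp2 (0.80) and Sfrp1 (0.72). Sfrp2 also ran with Cthrc1 (0.77). These are descriptions over 10 points that share arrays, chamber and age. The E14.5 atrial mean includes replicate 1, the highest of that group for Sfrp2, Frzb, Rspo3, Cthrc1 and the cushion and valve sum. Its part in the correlations was not tested. Among the 12983 genes, those most like Dkk3 in profile were Gnao1 (r = 0.99), Aebp1 and Creb3l2. Those most like Sfrp1 were Id2 (0.97), Uggt1 and Erlin2, and those most like Sfrp2 were Id3 (0.98), Zup1 and Eva1b. For Wif1 they were Tnfaip8l1 (0.98), Hipk3 and Thoc7. For Cthrc1 they were Ggh (0.90), Ift46 and Penk, for Frzb Rab31 (0.93), Zfp133-ps and Rhoq, and for Rspo3 Twist1 (0.97), Rai14 and Dlg5. Twist1 is 1 of the 9 cushion and valve markers. For Sfrp4 they were Epm2a (0.94), Nsl1 and Hykk, and for Sfrp5 Fpgs (0.96), Gm9946 and Pkd1l2, where there was little variation to follow.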

How the data were processed

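The authors deposited intensities on a linear scale for 45101 probe sets on each of 36 arrays. The sources used here do not say how they were computed, and the 2% trimmed mean of 500 on every array was kept. Groups and replicate numbers come from the sample titles. The 6 arrays of E16.5 carry day 15.5 in their description, and the title's day was used. Symbols come from the platform annotation, updated through Entrez identifiers to RefSeq GRCm38.p6. Of the 45037 probe sets that are not controls, 34945 had 1 symbol, 932 several and 9160 none.

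After adding a pseudocount of 17 and taking log2, a probe set was tested if 3 or more arrays exceeded 171.8, the middle value of the whole table. In R 4.3.3, limma 3.58.1 fitted the 12 group means with an intensity trend and 24 residual degrees of freedom, with two-sided tests. Adjustment was over 27256 probe sets in each of 11 comparisons, and 12983 genes were each read from their brightest tested probe set. The fit was tested on simulated data. Having 3 arrays a group limits the precision.

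The members, lists, comparisons and alternatives were chosen with earlier results of these data known. All 10 members are described, up to 4 called genes of each pathway list are named by size of difference, and the 3 genes most alike in profile are given for each tested member. Alternatives were pseudocounts of 1 and 68, no filter and a stricter one (583.3), quantile normalization, fits on the compared arrays alone, the replicate number as a block, left-out arrays and the mean without E14.5. Leaving out the 5 atrial arrays with the highest ventricular markers was added after the values were seen.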

Additional observations from a re-analysis of the deposited data

Results flagged for a closer look

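For Sfrp1 and Dkk3 the atrium and the ventricle changed unequally over gestation, by a test of the difference itself. The atrial change minus the ventricular change was 1.78 for Sfrp1 (adjusted p = 3.94e-05, limma) and 2.26 for Dkk3 (adjusted p = 0.000543, limma), on the log2 scale. Both passed the test in all 22 alternatives tried for them, with ranges of 1.57 to 2.01 and 2.04 to 2.65. The alternatives used the brightest probe set of each gene. The dimmest of the 5 Sfrp1 probe sets gave -0.27 (adjusted p = 0.723) and the next dimmest 0.73 (adjusted p = 0.158), neither called. On ventricular arrays the summed atrial markers ranged from 9893 to 16920 at E12.5 and from 5299 to 12043 at E18.5. Their part in these differences was not tested.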

How the results depend on the processing

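The 9 tested members gave 99 differences in 11 comparisons, of which 36 were called. Of these, 21 kept their call in every alternative tried, while 12 others were called under some alternative and 51 under none. The share of all genes called ran from 1.16% to 46.6% over the 11 comparisons. Some of these comparisons are built from the same age differences, so the 99 differences are not independent. The 1 reversal was Frzb at E14.5, at -0.09 without the 5 atrial arrays with the highest ventricular markers. With the compared arrays fitted alone, called probe sets numbered 279 from 2637 at E12.5, 29 from 1684 at E14.5, 4051 from 6610 in the atrial period, 407 from 1030 in the difference between chambers, 2218 from 315 between the heart region ages, and 114 from 255 for E12.5 against E11.5. Members called then numbered 0 at E12.5, 1 at E14.5 and 5 between the heart region ages. Without the 3 atrial arrays high in foregut and lung markers, 2198 probe sets were called at E13.5 (from 3310), 3454 at E18.5 (from 5314) and 490 in the difference between chambers, with 1 member in the atrial period. The strict filter tested 13854 probe sets and 5 of the 9 members, leaving out Wif1, Frzb, Sfrp4 and Sfrp5. It called 7319 probe sets in the mean of ages (from 11570 of 27256), 1 member at E13.5 and 3 in the ventricular period. Without the 5 atrial arrays, 459 probe sets were called for E12.5 against E11.5 and 2 members at E12.5, and a pseudocount of 1 also gave 2 members at E12.5, adding Wif1. Apart from the strict filter, which tested fewer features, the cause of these shifts was not tested.

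With 1 array left out at a time, called probe sets ranged from 1228 to 3419 at E12.5, 1986 to 2487 at E13.5, 545 to 1954 at E14.5, 3065 to 3844 at E16.5 and 3507 to 4721 at E18.5. They ranged from 3817 to 7409 in the atrial period, 452 to 2014 in the difference between chambers, 61 to 214 between the heart region ages and 40 to 340 for E12.5 against E11.5. Members called ranged from 1 to 2 at E13.5, 2 to 4 at E14.5, 2 to 5 in the ventricular period, 0 to 3 in the atrial period and 1 to 3 for E12.5 against E11.5. The titles give the ventricular and atrial arrays of an age the same replicate numbers, and what a shared number means is not in the labels. No pairing by number was seen in the residuals of the fit, with correlations from -0.335 to 0.159 and 3 of 15 ventricular arrays closest to the atrial array of their number. With 3 arrays a group, this cannot settle whether the chambers were paired. With the number as a replicate block, Cthrc1 at E14.5 (1.38) lost its call, at an adjusted p of 0.0572, and no other member did.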
